A study of Homo sapiens with 6 samples.

Results

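The CCR4-NOT complex is the main enzyme assembly that shortens the poly(A) tails of cytoplasmic mRNAs. The 10 genes described here are CNOT1, CNOT2, CNOT3, CNOT4, CNOT6, CNOT6L, CNOT7, CNOT8, CNOT9 and CNOT10, taken by name from 58735 annotated genes, of which 17947 had enough counts to be tested, all 10 included. CNOT1 was chosen by its transcript counts in these same 6 libraries, in which its most abundant annotated transcript differed between the groups, so its values are given as a description and without a test. The other 9 were taken because they encode parts of the same complex.

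Expression was measured by RNA-seq in 6 libraries of CCRF-SB, an established human line labelled as lymphoblast-like B-cell acute lymphoblastic leukaemia (B-ALL) cells from peripheral blood. The siANXA1 group (3 libraries) received a lentiviral vector carrying RNA that silences ANXA1, the gene of the phospholipid-binding protein annexin A1, and puromycin was used to select cells that express it. The siControl group (3 libraries) received the empty vector. All libraries share the line, its wild-type genotype, the RPMI-1640 medium with serum and the label of day 5. The labels do not give the promoter of the vector or the silencing sequence, and are silent on whether each replicate had a culture of its own, so the p-values cover the spread among these 6 libraries, and that spread may be technical.

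In the complex CNOT1 is the large scaffold on which the other subunits sit. Of the nucleases, CNOT6 and its paralogue CNOT6L belong to one enzyme family and CNOT7 and its paralogue CNOT8 to another, and a complex is thought to hold one of each pair. CNOT2 and CNOT3 form a module at the end of the scaffold, CNOT9 and CNOT10 bind elsewhere along it, and CNOT4 is a ubiquitin ligase that joins the human complex only loosely. Adaptors such as TNRC6 proteins, which work with Argonautes and microRNAs, bring the complex to chosen mRNAs, and removal of the tail is followed by decapping or by decay through the RNA exosome.

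Estimated counts in annotated genes totalled 21333951 (siANXA1 replicate 2) to 44148505 (siANXA1 replicate 1) per library. ANXA1 itself stood at 1606, 1723 and 1712 CPM (counts relative to library size, scaled between libraries) in siANXA1 libraries, against 3696, 3696 and 3756 CPM in siControl libraries, a log2 fold change of -1.14 ± 0.09 (SE) with an adjusted p of 0.0571 in edgeR's quasi-likelihood test. The groups did not overlap, although the adjusted p missed the threshold of 0.05. Against the label of the line, only 3 of 12 B lineage markers averaged 1 CPM or more, VPREB1, IGLL1 and DNTT were at 0 in all 6 libraries, and the list summed to 7.26 to 11.7 CPM in siANXA1 and 11.0 to 16.3 CPM in siControl libraries. All 10 erythroid markers were present, with sums of 4038 to 5746 CPM in siANXA1 and 739 to 1647 CPM in siControl libraries. Embryonic globin HBE1 alone made 2196 to 3235 CPM in siANXA1 and 4.83 to 646 CPM in siControl libraries, and 6 of the 10 markers, GATA1 and KLF1 among them, overlapped between the groups. The T cell list had 2 of 6 markers at 1 CPM or more, with CD2 at 0 in all libraries, and summed to 14.6 to 24.0 CPM in siANXA1 and 10.4 to 38.4 CPM in siControl libraries. The myeloid list also had 2 of 6, with sums of 35.7 to 40.3 CPM in siANXA1 and 34.2 to 46.3 CPM in siControl libraries, most of it LYZ. The first principal component, 39.9% of the variance of log2 CPM, did not follow the groups: siANXA1 replicate 2 lay with siControl replicates 1 and 2, and siANXA1 replicates 1 and 3 lay with siControl replicate 3.

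The CNOT1 transcripts that traded places differ at the following junctions, shown because they hold the exon that separates them. CNOT1 lies at chr16:58519951-58629886 on the minus strand of GRCh38. CNOT1-211 (ENST00000567188) joins chr16:58528475-58528489 to chr16:58528091-58528105, the start of an exon that CNOT1-216 (ENST00000569240) skips by joining the same end to chr16:58526124-58526138. Sequences are 5′ to 3′ from the GENCODE release 29 transcripts, and the capitals in the first mark its stop codon.
CNOT1-211: actcctaatctaaagagtcttactctgTGA
CNOT1-216: actcctaatctaaaggtggacatgttgagt

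The extra exon of CNOT1-211 is 183 bases long (chr16:58527923-58528105) and is exon 45 of 50. The reading frame meets the annotated stop codon within its first 15 bases, 168 bases of the exon follow, and 767 bases separate the stop codon from the last exon junction. GENCODE gives CNOT1-211 the biotype nonsense-mediated decay (NMD), the pathway that degrades mRNAs with a stop codon far upstream of a later junction. Its annotated coding sequence spans 6450 bases, against 7113 bases in CNOT1-216 and 7128 bases in CNOT1-201 (ENST00000317147), both of biotype protein coding with the stop codon in the last exon. CNOT1-201 and CNOT1-216 differ in the coding sequence by 15 bases at the end of exon 19 of CNOT1-201 (chr16:58556847-58556861), shown here in capitals after the bases both transcripts use.
CNOT1-201: ctacattccagcagaGTAAGATGAAACCTT

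**Figure D1:**
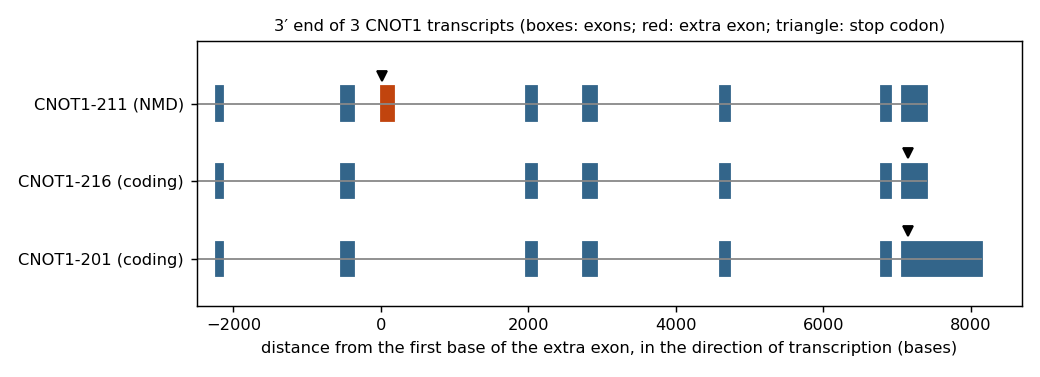
Exons near the 3′ end of 3 CNOT1 transcripts, drawn to scale in bases from the first base of the extra exon along the direction of transcription, with boxes for exons and triangles for annotated stop codons. CNOT1-211 has the 183-base exon with the stop codon in it, while CNOT1-216 and CNOT1-201 skip it and stop in the last exon.

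CNOT1-211 held 8, 2 and 6 estimated counts in siANXA1 replicates 1 to 3, against 14211, 14711 and 12561 in siControl replicates 1 to 3. That is 0.046%, 0.020% and 0.036% of the CNOT1 counts in siANXA1 libraries, against 72.1%, 67.2% and 68.3% in siControl libraries. The NMD transcript was nearly without counts in all 3 siANXA1 libraries and was the leading transcript in all 3 siControl libraries. Each side of the first principal component holds libraries of both groups, so this separation had to appear on both sides and is no further support.

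CNOT1-216, the coding transcript without the exon, went the other way, with 13271, 3297 and 12629 counts in siANXA1 libraries, against 1, 36 and 31 in siControl libraries. It made up 76.4%, 33.2% and 75.4% of CNOT1 in siANXA1 libraries, against 0.0051%, 0.164% and 0.169% in siControl libraries. The groups were far apart, and within siANXA1 replicate 2 had the lowest share.

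CNOT1-201, the longest of the 3, led in that library. Its share was 12.8%, 58.0% and 14.2% in siANXA1 libraries, against 20.7%, 25.9% and 18.1% in siControl libraries, so the groups overlapped and siANXA1 replicate 2 stood alone above all others. The 15-base segment that CNOT1-201 carries was present in 18.7%, 66.0% and 20.9% of the counts of the 7 transcripts that span it in siANXA1 libraries, against 25.0%, 30.6% and 28.4% in siControl libraries. A shorter coding transcript, CNOT1-202 (ENST00000441024), held 4.71%, 6.42% and 5.73% in siANXA1 libraries, against 3.25%, 3.81% and 8.95% in siControl libraries, and the groups overlapped.

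**Figure D2:**
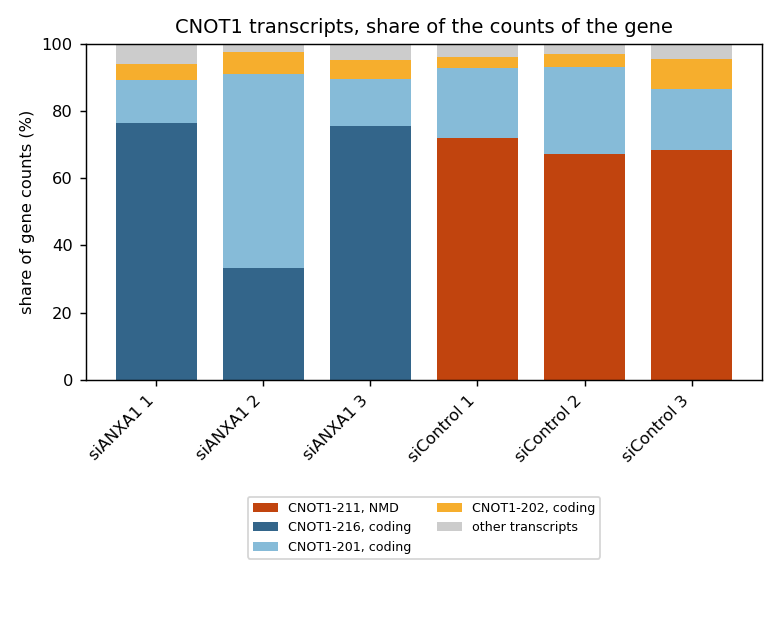
Share of each library's CNOT1 counts (percent) held by 4 transcripts and by all others together, with siANXA1 libraries left of siControl libraries. CNOT1-216 holds 33.2% to 76.4% of the siANXA1 bars, where CNOT1-211 is too small to see, and CNOT1-211 holds 67.2% to 72.1% of the siControl bars.

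Counted by biotype, protein coding transcripts held 98.1%, 98.6% and 98.7% of CNOT1 in siANXA1 libraries, against 27.0%, 32.0% and 30.8% in siControl libraries. In CPM the coding transcripts came to 392, 447 and 451 in siANXA1 libraries, against 128, 174 and 170 in siControl libraries. All other CNOT1 transcripts came to 7.45, 6.35 and 6.01 CPM in siANXA1 libraries, against 344, 369 and 381 CPM in siControl libraries. Among the 4 transcripts that span the extra exon, the 1 that includes it held 0.0515%, 0.022% and 0.0399% of the counts in siANXA1 libraries, against 77.5%, 71.9% and 78.7% in siControl libraries.

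Summed over all its transcripts CNOT1 hardly shared in this contrast. The gene stood at 400, 454 and 457 CPM in siANXA1 libraries, against 471, 543 and 551 CPM in siControl libraries, or 437 ± 32.1 and 522 ± 43.8 CPM (SD, n = 3 each). Every siANXA1 library lay below every siControl library, by a log2 fold change of -0.26 ± 0.13 (SE). The direction depends on what is summed, since the protein coding transcripts alone gave a log2 fold change of 1.46 and the most abundant transcript alone gave -11.19.

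These values are estimates that divide shared reads among overlapping transcripts. Of the 7756 stretches of 75 bases in CNOT1-211, 255 do not occur in CNOT1-216, and of the 7586 in CNOT1-216, 85 do not occur in CNOT1-211. None of these 75-base stretches occurs in a transcript of another gene. Whether reads cross the junctions shown above was not analysed here.

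Over the whole table a change of leading transcript with shares that do not overlap was found in 336 of 10224 genes with at least 2 tested transcripts, or 3.29%. CNOT1 is one of them by its choice. None of the other 9 subunit genes met that rule, although CNOT3, CNOT6, CNOT6L and CNOT10 had different leading transcripts by mean share, with libraries that overlapped. None of the coding shares of the other 9 genes passed in limma, adjusted or unadjusted, where 0.00983% of 10172 genes tested passed the adjusted threshold and 5.25% had an unadjusted p under 0.05. The 0.00983% is 1 gene, CNOT1 itself, which was chosen for its transcripts in these same libraries.

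At the gene level the other 9 subunits gave no call. None of the 9 passed an adjusted p of 0.05 in edgeR's quasi-likelihood test, where 0.0111% of all tested genes were called higher (2 genes) and 0% lower. At an unadjusted p under 0.05 there was 1 of 9, CNOT6L, which was higher, beside 7.93% of all genes (3.4% higher and 4.52% lower). The CPM ranges of the groups did not overlap for 2 of 9, CNOT6L above and CNOT3 below, beside 14.6% of all genes (7.41% above and 7.24% below). The log2 fold change was positive for 8 and negative for 1 of the 9. Its median over all 10 subunits was 0.22, beside 0.0066 over all genes tested. With 3 libraries per group, a missed threshold does not show that the levels were equal.

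The subunits attached to the scaffold come first. CNOT2, on chromosome 12, stood at 43.2, 72.1 and 62.0 CPM in siANXA1 libraries, against 40.5, 39.0 and 61.2 CPM in siControl libraries, a log2 fold change of 0.33 ± 0.27 (SE) with an adjusted p of 0.753 in edgeR. Replicates 2 and 3 of siANXA1 lay above all siControl libraries, replicate 3 by little, and replicate 1 lay within their range. CNOT3, its partner in the same module, on chromosome 19, was the one subunit besides CNOT1 with lower values, at 33.2, 30.6 and 47.4 CPM in siANXA1 libraries, against 47.7, 52.9 and 53.2 CPM in siControl libraries. The groups did not overlap, though siANXA1 replicate 3 nearly reached the lowest siControl library, and the log2 fold change of -0.47 ± 0.21 (SE) had an adjusted p of 0.642 in edgeR.

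CNOT9, which binds the middle of the scaffold and contacts adaptors such as the TNRC6 proteins, lies on chromosome 2. It stood at 85.7, 47.8 and 40.5 CPM in siANXA1 libraries, against 55.2, 30.8 and 38.7 CPM in siControl libraries, and siANXA1 replicate 1 alone exceeded the siControl range. Its log2 fold change was 0.48 ± 0.36 (SE), with an adjusted p of 0.734 in edgeR. CNOT10 on chromosome 3 differed least between the groups, with 140, 126 and 138 CPM in siANXA1 libraries, against 126, 128 and 129 CPM in siControl libraries. The ranges overlapped, and the log2 fold change was 0.08 ± 0.13 (SE), with an adjusted p of 0.859 in edgeR. CNOT11, which binds the scaffold together with CNOT10 and is not one of the 10, averaged 140 ± 13.1 CPM in siANXA1 and 115 ± 23.9 CPM in siControl libraries (SD, n = 3 each).

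CNOT4, the ubiquitin ligase, on chromosome 7, stood at 32.3, 33.5 and 39.3 CPM in siANXA1 libraries, against 30.8, 32.4 and 32.3 CPM in siControl libraries. The ranges overlapped narrowly, with a log2 fold change of 0.14 ± 0.17 (SE) and an adjusted p of 0.816 in edgeR.

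**Figure D3:**
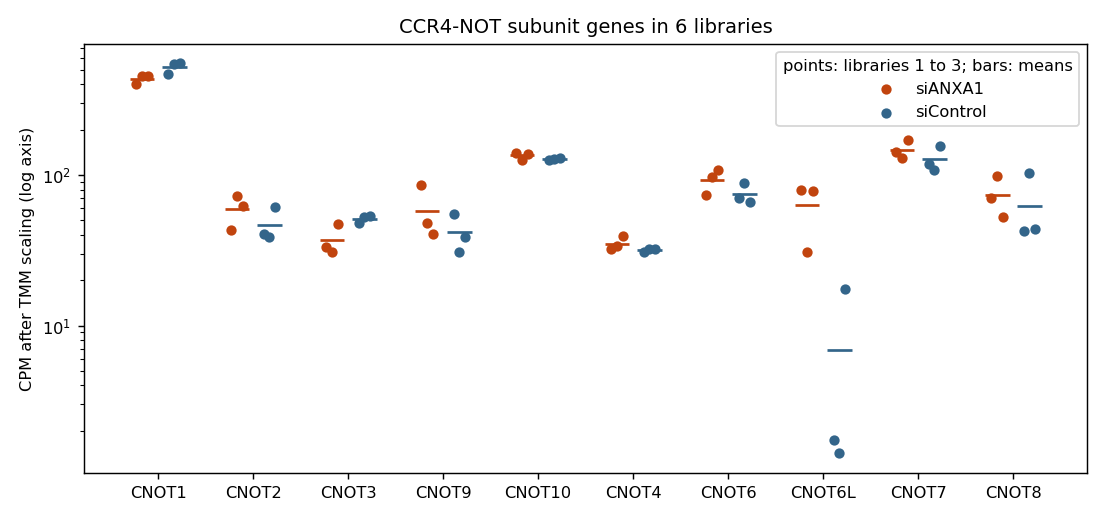
Expression of the 10 subunit genes in CPM on a log axis, with 1 point per library, the mean of each group as a bar and siANXA1 left of siControl. CNOT6L shows the widest gap, with 30.8 to 79.8 CPM in siANXA1 and 1.41 to 17.4 CPM in siControl libraries, and the points of most other genes overlap.

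Among the nucleases CNOT6L had the widest gap. It lies at chr4:77713387-77819615 on the minus strand of GRCh38. Its estimated counts were 3468, 675 and 2869 in siANXA1 libraries, against 72, 57 and 582 in siControl libraries. In CPM this is 79.8, 30.8 and 78.3 in siANXA1 libraries, against 1.72, 1.41 and 17.4 in siControl libraries, or 63.0 ± 27.9 and 6.86 ± 9.16 CPM (SD, n = 3 each). Each siANXA1 library lay above each siControl library, but siControl replicate 3 was well above the other siControl libraries and siANXA1 replicate 2 was well below the other siANXA1 libraries. The log2 fold change was 3.20 ± 1.08 (SE), with an unadjusted p of 0.0231 and an adjusted p of 0.610 in edgeR's quasi-likelihood test. DESeq2 gave 3.19 with an adjusted p of 0.0433, in a run that called 258 genes.

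The outlying CNOT6L values fell along the first principal component. On the side that holds siANXA1 replicate 2 and siControl replicates 1 and 2, the log2 difference was 4.26, and on the side that holds siANXA1 replicates 1 and 3 and siControl replicate 3 it was 2.18. The erythroid marker sums given above, though with overlap in 6 of the 10 single markers, also separated the groups, and their part in the CNOT6L values was not tested. In bulk RNA, fewer cells with a transcript and less of it per cell cannot be told apart.

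Most CNOT6L counts in siANXA1 libraries were assigned to transcripts with a long last exon. CNOT6L-201 (ENST00000504123), whose last exon has 7257 bases, had 2861, 492 and 2489 counts in siANXA1 libraries, against 1, 5 and 477 in siControl libraries. CNOT6L-209 (ENST00000649644) had 544, 145 and 322 counts in siANXA1 libraries, against 0, 3 and 84 in siControl libraries. Both were above the siControl range in all siANXA1 libraries. The transcript ENST00000512485, with a last exon of 414 bases, had 38, 18 and 34 counts in siANXA1 libraries, against 35, 36 and 19 in siControl libraries, which overlap. Its share of the gene was 1.10%, 2.67% and 1.19% in siANXA1 libraries, against 48.6%, 63.2% and 3.26% in siControl libraries, with an unadjusted p of 0.0287 and an adjusted p of 0.935 in limma. Its counts were alike in both groups, while the total of the gene was larger in siANXA1 libraries. Of the 75-base stretches of CNOT6L-201, 370 of 8791 (4.21%) also occur in the pseudogene CNOT6LP1, and of those of ENST00000512485, 370 of 1816 (20.4%). CNOT6LP1 had 11, 11 and 4 counts in siANXA1 libraries, against 41, 48 and 8 in siControl libraries.

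CNOT6, the paralogue on chromosome 5, stood at 74.1, 97.7 and 108 CPM in siANXA1 libraries, against 69.9, 88.3 and 66.6 CPM in siControl libraries. The ranges overlapped, and the log2 fold change of 0.32 ± 0.20 (SE) had an adjusted p of 0.698 in edgeR. On the scale of TPM, which also divides by transcript length, CNOT6 and CNOT6L together came to 38.8, 39.3 and 50.0 TPM in siANXA1 libraries, against 22.8, 27.6 and 23.8 TPM in siControl libraries. CNOT6L made up 44.3%, 22.6% and 35.5% of that sum in siANXA1 libraries, against 8.67%, 4.25% and 16.8% in siControl libraries. Neither the sum nor the share overlapped between the groups, and with 3 against 3 libraries an exact permutation test cannot go below 0.1, so none is given.

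The other nucleases, CNOT7 and CNOT8, had overlapping groups. CNOT7 stood at 142, 131 and 170 CPM in siANXA1 libraries, against 119, 108 and 155 CPM in siControl libraries, with a log2 fold change of 0.21 ± 0.19 (SE) and an adjusted p of 0.778 in edgeR. CNOT8 on chromosome 5 stood at 70.5, 98.1 and 52.7 CPM in siANXA1 libraries, against 42.2, 102 and 43.5 CPM in siControl libraries, with a log2 fold change of 0.23 ± 0.42 (SE) and an adjusted p of 0.873 in edgeR. In both groups replicate 2 was the highest for CNOT8 and the lowest for CNOT7. CNOT8 made up 52.4%, 63.6% and 53.3% of the TPM of the pair in siANXA1 libraries, against 53.6%, 66.9% and 44.7% in siControl libraries, and the groups overlapped.

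Ordered by TPM summed over all transcripts of a gene, the scaffold came first in both groups. Protein coding transcripts held 98.1%, 98.6% and 98.7% of CNOT1 counts in siANXA1 libraries, but 27.0%, 32.0% and 30.8% in siControl libraries. The order by coding transcripts alone was not analysed. CNOT1 averaged 140 ± 10.9 TPM in siANXA1 and 154 ± 16.8 TPM in siControl libraries, and CNOT10 followed at 112 ± 3.96 TPM in siANXA1 and 106 ± 5.91 TPM in siControl libraries (SD, n = 3 each). CNOT8, CNOT2, CNOT7 and CNOT9 came next, at 46.3 to 62.7 TPM in siANXA1 and 37.6 to 53.8 TPM in siControl libraries, and each overlapped its neighbour in this order. CNOT6 and CNOT3 followed in siANXA1 libraries at 28.1 and 22.9 TPM, overlapping each other, while in siControl libraries CNOT3 lay above CNOT6 at 29.7 and 22.4 TPM without overlap. CNOT4 followed at 18.0 TPM in siANXA1 and 16.0 TPM in siControl libraries, without overlap with the gene above it in either group. CNOT6L was last in both groups, at 14.6 ± 4.96 TPM in siANXA1 libraries, where it overlapped CNOT4, and at 2.38 ± 1.45 TPM in siControl libraries, where it did not.

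Transcript use varied widely between libraries of one group in several of the other 9 genes, though not in CNOT7. They have 69 tested transcripts. At the transcript level in edgeR none of the 69 passed, adjusted or at an unadjusted p under 0.05. Of all 58702 transcripts, 0.0017% passed adjusted and 4.69% unadjusted. The 0.0017% is 1 transcript, CNOT1-211, and CNOT1 was chosen for its transcripts in these same libraries. For shares, 0 of 69 passed the adjusted threshold in limma, 1 of 69 had an unadjusted p under 0.05 and 4 of 69 did not overlap. Among all 51423 shares tested, 0.138% passed the adjusted threshold, 4.57% the unadjusted one and 11.7% did not overlap.

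CNOT6 shows the spread most plainly. CNOT6-207 (ENST00000618123) had 2268, 1914 and 3766 counts in siANXA1 libraries, against 0, 3248 and 0 in siControl libraries. CNOT6-201 (ENST00000261951) had 919, 210 and 186 counts in siANXA1 libraries, against 2899, 292 and 2209 in siControl libraries. CNOT6-207 led in all siANXA1 libraries and in siControl replicate 2, and CNOT6-201 in siControl replicates 1 and 3. Both carry the same coding length of 1671 bases, and CNOT6-207 has an exon 2 of 168 bases that CNOT6-201 lacks, at total lengths of 6250 and 6176 bases. The adjusted p of both shares was 0.935 in limma.

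CNOT10 holds a similar case in an NMD transcript. ENST00000416457 had 0, 0 and 839 counts in siANXA1 libraries, against 0, 2740 and 638 in siControl libraries, so both groups held libraries with and without it. Coding transcripts of CNOT10 made up 94.0%, 90.6% and 79.9% in siANXA1 libraries, against 92.4%, 43.0% and 82.1% in siControl libraries. Of 12 transcripts of these 9 genes with 1000 or more counts in a library, 2 were at 0 in another library of the same group, beside 5.23% of 9643 such transcripts in the whole table. The 2 are CNOT6-207 and this one.

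An 81-base exon of CNOT10, exon 13 of CNOT10-201 (chr3:32737410-32737490, plus strand, GRCh38), is shown because transcripts that carry it had varying counts within each group.
CNOT10-201 exon: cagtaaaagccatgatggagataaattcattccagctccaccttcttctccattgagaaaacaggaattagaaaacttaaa
Transcripts with it held 56.5%, 25.7% and 76.8% of the spanning counts in siANXA1 libraries, against 30.2%, 61.3% and 70.6% in siControl libraries. They include the NMD transcript ENST00000416457, which gave 2740 of the 3045 such counts in siControl replicate 2. CNOT10-201 itself held 52.7%, 23.2% and 57.1% of the gene in siANXA1 libraries, against 27.8%, 5.86% and 53.3% in siControl libraries. Both groups spanned a wide and shared range. CNOT10-202 (ENST00000331889), which lacks the exon, held 40.9%, 67.2% and 22.4% of the gene in siANXA1 libraries, against 64.5%, 37.1% and 28.3% in siControl libraries, which overlap. CNOT10-201 and CNOT10-202 also differ outside this exon, with lengths of 2815 and 2573 bases, so the counts do not measure the exon alone.

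CNOT9-201 (ENST00000273064), the leading transcript of CNOT9, held 75.6%, 79.1% and 26.1% of the gene in siANXA1 libraries, against 89.9%, 43.1% and 5.65% in siControl libraries. The groups overlapped, and replicate 3 was the lowest in each.

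**Figure D4:**
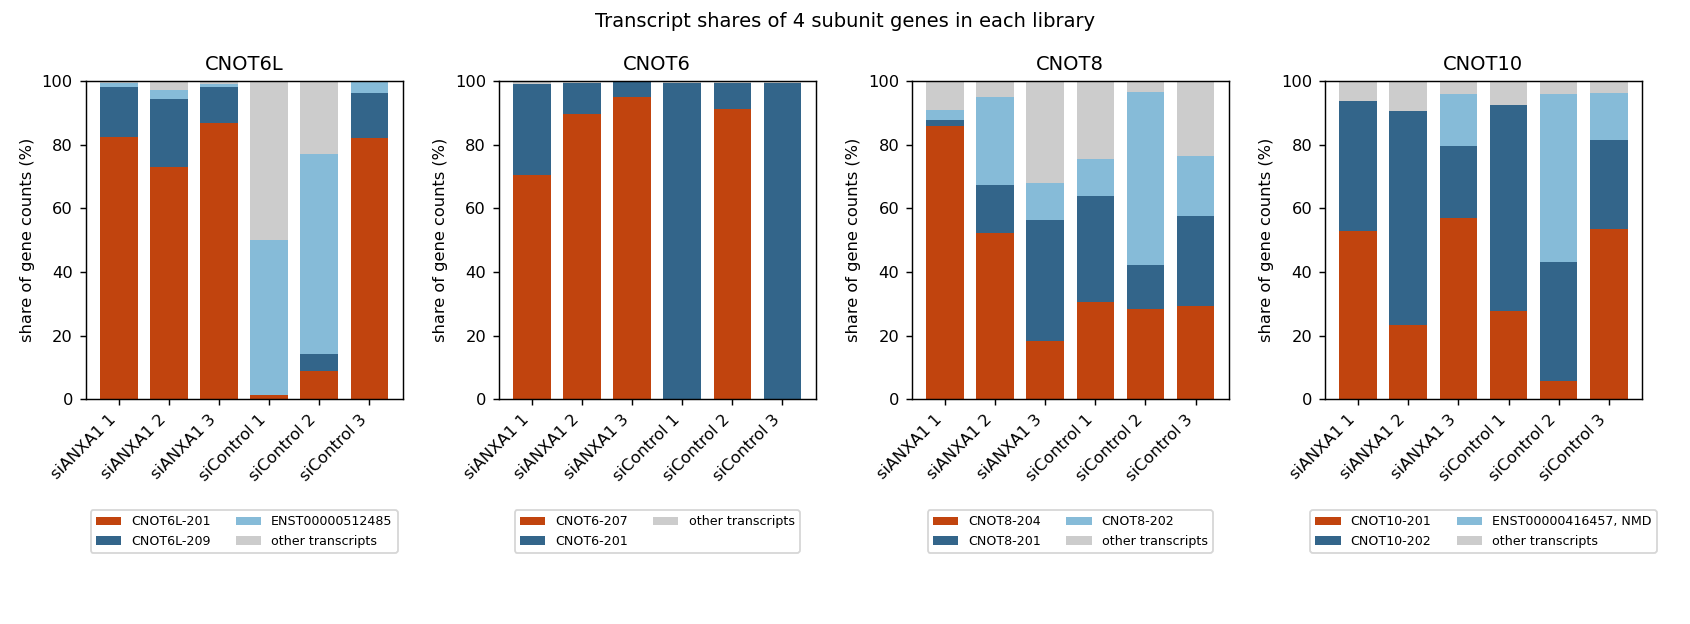
Share of each library's gene counts (percent) held by the leading transcripts of CNOT6L, CNOT6, CNOT8 and CNOT10, with siANXA1 libraries left of siControl libraries. Leading transcripts change between libraries of one group, as with CNOT6-207 at 0.00%, 91.2% and 0.00% in siControl replicates 1 to 3.

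CNOT8 and CNOT2 varied in the same manner. CNOT8-204 (ENST00000517876) held 85.9%, 52.3% and 18.2% of the gene in siANXA1 libraries, against 30.6%, 28.4% and 29.2% in siControl libraries. ENST00000229195, the leading transcript of CNOT2, held 63.3%, 11.0% and 80.1% in siANXA1 libraries, against 44.1%, 42.2% and 73.5% in siControl libraries. Its second transcript, ENST00000550641, held 1.49%, 64.7% and 4.62% in siANXA1 libraries, against 0.00%, 21.4% and 0.15% in siControl libraries, and replicate 2 was the highest in each group. For CNOT8-204 and ENST00000229195, the siANXA1 libraries lay on either side of the lowest siControl value. In CNOT7 a single transcript, ENST00000361272, led in all 6 libraries and held 92.2%, 94.4% and 97.6% in siANXA1 libraries, against 96.3%, 92.1% and 90.4% in siControl libraries.

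CNOT4 held 3 of the 4 shares without overlap. Its leading transcript ENST00000428680 made up 22.8%, 25.9% and 35.7% in siANXA1 libraries, against 39.0%, 47.8% and 48.0% in siControl libraries, with an adjusted p of 0.935 in limma. ENST00000451834 made up 12.0%, 14.3% and 14.1% in siANXA1 libraries, against 4.35%, 10.9% and 5.19% in siControl libraries, also with an adjusted p of 0.935. The remaining CNOT4 share, of ENST00000541284, was 14.6%, 14.3% and 15.5% in siANXA1 libraries, against 13.8%, 11.8% and 6.30% in siControl libraries. Its groups nearly met, and its adjusted p in limma was 0.935. CNOT3 had ENST00000358389 in front in siANXA1 libraries, with 59.1%, 61.1% and 26.7% there, against 36.9%, 16.7% and 35.1% in siControl libraries, which overlap. Its other leading transcript, ENST00000617930, held 6.25%, 0.00% and 38.7% in siANXA1 libraries, against 30.2%, 45.6% and 38.5% in siControl libraries.

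The mRNA decay genes around the complex gave no call either. Of 88 symbols in 5 lists, 84 were tested, none passed the adjusted threshold in either direction in edgeR, 3 of 84 were higher and 1 of 84 was lower at an unadjusted p under 0.05, beside 3.4% and 4.52% of all genes, and 10 of 84 did not overlap, beside 14.6% of all genes. The median log2 fold change was 0.08 over the 84, beside 0.0066 over all genes tested.

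Partners and adaptors of the complex had 14 positive and 14 negative values among 28. AGO1, an Argonaute protein that carries microRNAs, averaged 308 ± 61.5 CPM in siANXA1 and 238 ± 55.1 CPM in siControl libraries, and its paralogue AGO2 averaged 264 ± 51.5 CPM in siANXA1 and 219 ± 41.3 CPM in siControl libraries (SD, n = 3 each). Both pairs of groups overlapped.

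Deadenylases outside the complex had 4 positive and 4 negative values among 8. PARN, a nuclease of small non-coding RNA tails among other targets, averaged 88.2 ± 4.22 CPM in siANXA1 and 98.6 ± 7.68 CPM in siControl libraries. PDE12, a mitochondrial deadenylase, averaged 81.3 ± 12.5 CPM in siANXA1 and 57.8 ± 16.0 CPM in siControl libraries. Poly(A) tail binding and synthesis had 7 positive and 5 negative values among 12, with PABPC1, the main cytoplasmic tail-binding protein, at 1108 ± 39.4 CPM in siANXA1 and 1199 ± 131 CPM in siControl libraries, and PAPOLA, the nuclear poly(A) polymerase, at 310 ± 43.3 CPM in siANXA1 and 263 ± 62.7 CPM in siControl libraries. None of these 4 genes separated the groups.

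Decapping and 5′ decay had 14 positive and 6 negative values among 20. DDX6, the helicase that binds CNOT1 and links the complex to decapping, stood at 341, 247 and 319 CPM in siANXA1 libraries, against 164, 189 and 153 CPM in siControl libraries. The groups did not overlap, and the log2 fold change was 0.84 ± 0.17 (SE) with an unadjusted p of 0.00218 and an adjusted p of 0.574 in edgeR. LSM4, of the ring that promotes decapping, averaged 207 ± 30.6 CPM in siANXA1 and 209 ± 22.8 CPM in siControl libraries. The RNA exosome and SKI list had 11 positive and 5 negative values among 16, with TTC37, a SKI subunit, at 180 ± 5.73 CPM in siANXA1 and 183 ± 8.58 CPM in siControl libraries, and EXOSC10, an exosome nuclease, at 178 ± 30.2 CPM in siANXA1 and 177 ± 45.9 CPM in siControl libraries (SD, n = 3 each).

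PAIP1, a partner of the tail-binding protein PABPC1, was picked out after its values were seen. It stood at 140, 114 and 148 CPM in siANXA1 libraries, against 64.1, 67.7 and 75.2 CPM in siControl libraries, without overlap. Its log2 fold change was 0.96 ± 0.16 (SE), with an unadjusted p of 0.000795 and an adjusted p of 0.478 in edgeR. Besides PAIP1 and DDX6, LSM3 was higher at an unadjusted p under 0.05, with a log2 fold change of 0.46 ± 0.15 (SE). The 1 lower gene was ANGEL2, of the deadenylase list, at -0.53 ± 0.21 (SE). For LSM3 and ANGEL2 the unadjusted p in edgeR was 0.018 and 0.0439, and the adjusted p was 0.605 and 0.627.

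**Figure D5:**
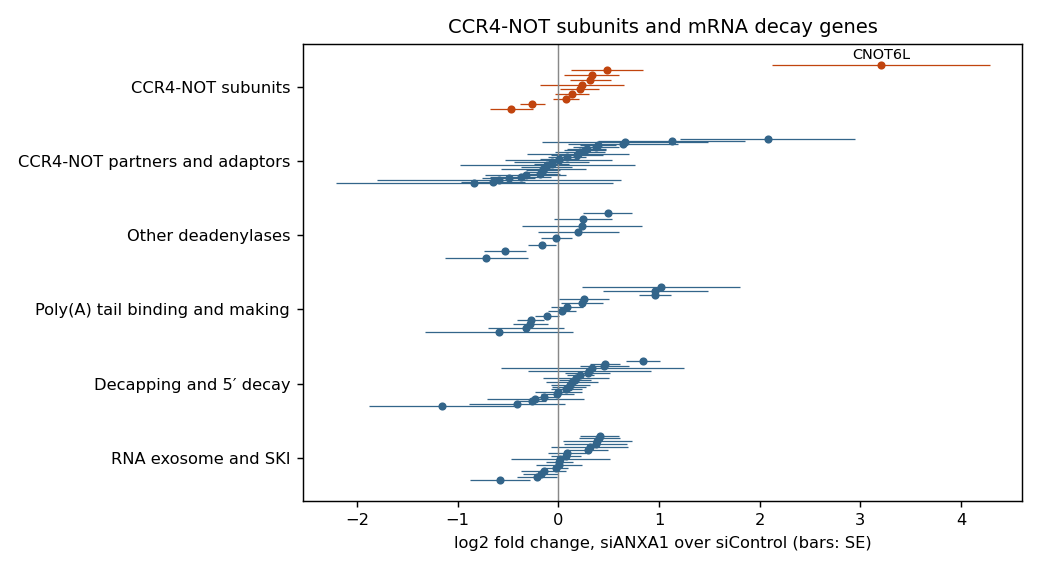
Log2 fold change of siANXA1 over siControl for the 10 CCR4-NOT subunits and for 84 genes of 5 mRNA decay lists, 1 point per gene with its standard error as a bar. CNOT6L lies at 3.20, CNOT3 lies lowest of the subunits at -0.47, and the median of the 84 genes is 0.08.

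By Pearson correlation of log2 CPM over the 6 libraries, the genes most like CNOT1 were NUCKS1 with 0.992, ST13 with 0.987 and B3GNTL1 with 0.981. These coefficients describe 6 libraries of 2 groups among 17947 genes and carry no test. As for CNOT1, the siANXA1 values of each of the 3 all lay under the siControl values, beside 7.24% of all genes tested. The 3 genes were picked for their likeness to CNOT1, so this is no separate result. NUCKS1, a nuclear DNA-binding protein, averaged 685 ± 86.9 CPM in siANXA1 and 909 ± 120 CPM in siControl libraries, and ST13, a co-chaperone, averaged 328 ± 20.1 CPM in siANXA1 and 393 ± 24.6 CPM in siControl libraries (SD, n = 3 each). Within the complex the coefficients with CNOT1 ran from -0.866 for CNOT9 to 0.789 for CNOT3, over the same 6 libraries.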

How the data were processed

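The authors deposited estimated counts per transcript for 6 RNA-seq libraries, rounded to whole numbers and not normalized, in 2 tables whose 1335690 values were equal. That they are estimates was read from the values. For the aligner, the counting tool and strandedness nothing is given in the sources used here, so overlapping, antisense and near-identical genes may share reads. Libraries were made from Trizol RNA with an Illumina TruSeq kit, per the labels' protocols. Per the submitters' processing notes the genome build was mm10, which is mouse, but each of the 206601 rows that carry a gene matched a human transcript of GENCODE release 29 (GRCh38). The other 16014 rows, with 16.9% to 17.7% of each library's counts, carry no gene and stayed out of library sizes and tests.

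Groups and replicate numbers came from the sample titles. Gene sums and transcripts were each tested in R 4.3.3 by the robust quasi-likelihood fit of edgeR 4.0.16, after filterByExpr and TMM scaling, with group as the only term. Transcript and protein coding shares of a gene were tested with limma 3.58.1 on the logit scale with a pseudocount of 0.5 counts. All p-values were two-sided and adjusted over all features tested (Benjamini-Hochberg, threshold 0.05), and each fit was run on simulated data. The simulated shares had a set spread and not that of these libraries, so those runs do not show how the share tests perform here. CPM are TMM-scaled, except for the marker lists, and TPM were computed from counts and deposited transcript lengths. The members, gene lists and tests were chosen with earlier results of these data known. Named were all subunits, the 2 highest genes per list and the 3 genes most like CNOT1. Transcripts were drawn from the 2 leading ones of each subunit and those with a mean share of 10% or more in a group. Not all of these are printed, and CNOT1-202 was added. PAIP1, LSM3, ANGEL2, CNOT11 and CNOT6LP1 were added after their values were seen. DESeq2 1.42.0, limma-voom and other settings were alternatives. One result is not reported here.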

Additional observations from a re-analysis of the deposited data

How the results depend on the processing

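The estimates are limited by 3 libraries per group and by the division of shared reads among overlapping transcripts, and counting error is not known for estimated counts. Of 180 alternative values of the 10 gene-level fold changes, 174 were rated as unchanged. For the other 9 genes this meant the same direction and side of the threshold. For CNOT1, which has no test, it meant a value within a pooled within-group SD of log2 CPM from the main value. The most abundant transcript alone kept the direction of CNOT1 but moved it to -11.19. The direction of CNOT1 changed to 1.46 with protein coding transcripts alone, while the most abundant transcript alone gave 0.17 for CNOT3 and -0.52 for CNOT4. With 1 library left out, CNOT8 ranged from -0.0211 (without siANXA1 replicate 2) to 0.77. CNOT6L ranged from 2.72 to 5.32 over its 18 alternatives, with adjusted p-values of 0.0433 (DESeq2) to 0.999.

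Genes called numbered 2, and 258 with DESeq2, 0 with coding transcripts alone, 1 with the most abundant transcript alone, 0 to 7 with 1 library left out (7 without siControl replicate 3, 2 without siControl replicate 1, 0 otherwise), 5 with the side of the first principal component as a term and 5 with the rows without a gene kept. The last 2 settings were chosen after seeing the data. Transcripts called numbered 1, and 675 with DESeq2, 0 with limma-voom and 0 to 1 with 1 library left out. The call in the main run was of a lower transcript, CNOT1-211. As CNOT1 was chosen for its transcripts in these same libraries, that call is no test of CNOT1-211. In the left-out runs there was 1 lower call without siANXA1 replicate 2, 1 higher call without siControl replicate 2 and none in the other 4. Transcript shares called numbered 71, and 18 with a pseudocount of 5 counts, 38 on the arcsine scale, 18 with the strict filter, 11 with the component side and 7 to 178 with 1 library left out (7 without siANXA1 replicate 3 or siControl replicate 2, 178 without siANXA1 replicate 2). Coding shares called numbered 1, and 2 on the arcsine scale and 1 to 4 with 1 library left out (3 without siANXA1 replicate 1, 4 without siControl replicate 3). The 1 in the main run was that of CNOT1, which was chosen for its transcripts in these same libraries, so its call is no test of CNOT1. Changes of leading transcript numbered 336, and 168 with the strict filter (a mean CPM of at least 5, with 10 counts in 3 libraries) and 554 to 840 with 1 library left out, where fewer libraries have to be apart. In those runs CNOT6L joined them without siANXA1 replicate 2 or siControl replicate 3, CNOT3 without siANXA1 replicate 3 and CNOT6 without siControl replicate 2.

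Deviations from the group means correlated at -0.114, 0.263 and 0.256 between libraries of the same replicate number (replicates 1 to 3). Differently numbered libraries were not compared, so these values cannot decide whether the replicate numbers pair the libraries. With the replicate block, 0 genes, 0 transcripts, 0 transcript shares and 0 coding shares were called.

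Of 331 alternative values of named transcript shares, 18 changed direction, none of them a share past the threshold. One of these was ENST00000331889 of CNOT10, at a logit difference of 0.40 with the component side as a term, and the others came from leaving out 1 library. Over those runs the logit difference ranged from -0.52 to 0.46 for ENST00000331889, from -0.158 to 0.41 for ENST00000221232 of CNOT3, from -0.0946 to 0.162 for ENST00000440571 of CNOT3, from -0.93 to 0.81 for ENST00000229195 of CNOT2, from -0.80 to 0.33 for ENST00000356162 of CNOT4, from -1.25 to 0.0866 for ENST00000523917 of CNOT7, from -1.67 to 0.0343 for ENST00000285896 of CNOT8, from -0.48 to 2.02 for ENST00000273064 of CNOT9, from -0.79 to 0.60 for ENST00000295701 of CNOT9 and from -3.29 to 0.76 for ENST00000627282 of CNOT9. For all results in this section whose value moved, the cause was not tested, apart from the smaller number of libraries named above.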
